A study of Mus musculus with 77 samples.

Results

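Sugar and monocarboxylate transporters were examined in RNA sequencing libraries of mouse colon organoids and adenocarcinoma cells treated with corticosteroid hormones. The set holds every row whose gene symbol starts with Slc2a, Slc5a or Slc16a followed by a number, in each deposited table, and that varies between libraries. It counts 40 of the 25155 genes in the series: 13 Slc2a rows (1 of them, Slc2a4rg-ps, a pseudogene row and no transporter), 13 Slc5a rows and 14 Slc16a rows. All 40 varied between libraries in at least 1 table and 23 varied in each of the 9 tables that list them.

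The study asked how the mineralocorticoid receptor (MR, gene Nr3c2) answers its ligand aldosterone and the rodent glucocorticoid corticosterone with and without the glucocorticoid receptor (GR, gene Nr3c1). Of 77 samples, 63 were RNA samples in 18 groups, and 14 chromatin immunoprecipitation samples were not analysed here. Adenocarcinoma cells, which the labels of the chromatin samples name as C127l, were parental with no added MR, parental with MR, parental with the MR form MR580C, or labelled GRKO (GR knockout) with MR or with MR580C. The titles of the RNA samples of the MR lines carry different tags, 1G12 in the parental and 2B12 in the GRKO-labelled line (titles of parental chromatin samples also say 2B12), so the line tag and the GR label cannot be told apart there. Colon organoids, which are gel-grown cultures of gut epithelial cells, came as wild type (WT) and as GRKO by their labels. All were kept for 24 h in medium with charcoal-stripped serum and then exposed for 2 h to vehicle, to aldosterone at 10 nM or, in the MR and MR580C cell lines, to corticosterone at 100 nM. Cell groups had 3 samples each, except 2 for aldosterone in parental MR cells and, with corticosterone in the same line, samples 1 and 3 of 3, since sample 2 was not analysed here. WT organoids had 6 samples in each group and GRKO organoids 5. No label says that replicates are different animals or cultures, so each p-value reflects only how far these samples spread, and that spread may be technical. In such bulk samples, fewer cells of a type and less RNA per cell cannot be told apart.

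Library totals, as the file headers give them, ran from 22.68 to 61.12 M (mega-reads). They were lower in GRKO organoids with aldosterone (22.68 to 29.04 M) than with vehicle (26.64 to 37.46 M), and the part of this gap in the organoid results was not tested. The organoid libraries called vehicle 1 and 3 and aldosterone 3 and 4 of WT and vehicle 1 of GRKO, 5 in all, lay farther than 0.15 log2 units (root mean square) from the mean of their group. The summed level of 7 mesenchyme markers was 8.32 to 8.67 (log2) in WT vehicle libraries and 8.45 to 8.55 in 4 of the WT aldosterone libraries, but 9.62 in aldosterone 4 and 10.21 in aldosterone 6. Fits without both libraries are given below for some genes, and beyond them the part of these markers in the organoid results was not tested. The median used for markers and for transporter levels below is that of the genes that vary in a table, averaged over all its libraries. These were 20196 genes in WT organoids and 17639 in GRKO-labelled MR580C cells, so the cut covers a different share of genes in each table. The marker counts that follow rest on vehicle libraries alone, each of which had to lie above that median. None of the 7 mesenchyme markers did so in organoids, and the aldosterone libraries were not counted. Of 16 colon epithelium markers, 15 lay above that median in both organoid lines (Lgr5 did not), while none did in the cell lines, where Epcam did not vary. Above that median also lay 4 of 6 small intestine markers (Sis, Fabp2, Alpi and Rbp2), 1 of 7 immune markers (Cd14) and 4 or 5 of 11 mammary markers in organoids, and in the cell lines 4 or 5 of the 7 mesenchyme markers, 0 to 2 of 11 mammary markers (Krt14 and Gata3), 0 or 1 of 6 small intestine markers and no immune marker. The summed small intestine markers of organoids spanned 12.40 to 13.09 and the summed immune markers 9.02 to 9.77, with treatments overlapping in each line. For GRKO-labelled MR580C cells, libraries 2 and 3 with aldosterone held identical values and were counted as 1 sample. With vehicle, Nr3c1 was 11.15 to 11.42 in WT and 9.07 to 9.24 in GRKO organoids, 12.84 to 12.90 in parental and 12.98 to 13.02 in GRKO-labelled MR cells, and 13.13 to 13.21 in parental and 11.84 to 11.90 in GRKO-labelled MR580C cells. These pairs come from separately normalized tables, on different scales for MR580C, so they do not check the labels by themselves.

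Sugars cross membranes in animal cells by 2 kinds of carrier. The Slc2a (GLUT) proteins let glucose or fructose run down its gradient, while most Slc5a proteins (SGLT and relatives) draw sugars, inositol, vitamins or organic acids in together with sodium. The Slc16a (MCT) family moves lactate, pyruvate, ketone bodies and other small acids, in its best known members together with a proton, and colonocytes use such carriers to take up the short-chain fatty acids that gut bacteria make. MR and GR bind as pairs to a shared DNA element built from 2 copies of a hexamer, and aldosterone is known in colon epithelium for raising sodium uptake.

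Promoter windows of the sodium-coupled carriers whose values changed are shown because they let a reader look for that hexamer at the start of each gene. They run from 250 bases before to 50 bases after the start of the RefSeq gene (GRCm38.p6), 5′ to 3′ on the plus strand, and capitals mark the hexamer AGAACA or its reverse complement TGTTCT. The window of Slc5a1 is chr5:33103969-33104268, that of Slc5a3 is chr16:92058072-92058371 and that of Slc5a8 is chr10:88885742-88886041.
Slc5a1: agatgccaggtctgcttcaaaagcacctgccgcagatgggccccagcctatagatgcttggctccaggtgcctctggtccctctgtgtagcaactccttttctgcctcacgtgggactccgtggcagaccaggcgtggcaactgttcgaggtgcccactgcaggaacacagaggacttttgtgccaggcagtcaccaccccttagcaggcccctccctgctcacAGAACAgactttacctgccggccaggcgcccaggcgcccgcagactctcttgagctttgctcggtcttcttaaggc
Slc5a3: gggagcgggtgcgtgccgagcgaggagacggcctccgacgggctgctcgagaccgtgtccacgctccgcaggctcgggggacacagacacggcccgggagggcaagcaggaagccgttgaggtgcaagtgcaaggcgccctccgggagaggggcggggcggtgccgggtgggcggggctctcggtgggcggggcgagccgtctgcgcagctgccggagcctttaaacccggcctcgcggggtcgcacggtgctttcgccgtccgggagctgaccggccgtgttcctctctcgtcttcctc
Slc5a8: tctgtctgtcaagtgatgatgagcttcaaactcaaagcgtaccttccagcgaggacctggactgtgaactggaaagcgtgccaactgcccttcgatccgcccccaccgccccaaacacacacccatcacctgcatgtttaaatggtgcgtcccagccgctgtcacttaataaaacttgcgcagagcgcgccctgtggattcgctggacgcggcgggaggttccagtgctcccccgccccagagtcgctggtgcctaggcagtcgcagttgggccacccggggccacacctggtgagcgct
The window of Slc5a1 holds 1 hexamer, which begins at position -26 from the start, and the windows of Slc5a3 and Slc5a8 hold none. Among all 32851 windows 6233 (19.0%) hold the hexamer on either strand, and among the 31 windows of 29 transporter genes 6 do (19.4%), those of Slc16a12, Slc16a3, Slc16a4, Slc2a7, Slc5a1 and Slc5a4b. The full palindrome, both hexamers 3 bases apart, is in 3 of all windows (0.00913%) and in 0 of the transporter windows. The windows of Slc5a3 and of Mrps6, a mitochondrial ribosomal protein gene at the same locus, share 286 bases, since their starts lie 14 bases apart.

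Values below are the authors' log2 library values, on a variance-stabilized scale (vst) in organoids and parental MR580C cells and on a scale taken to be the regularized log (rlog) in the other lines. Differences are hormone minus vehicle on that scale, with limma's standard error (SE), 95% interval and a p-value adjusted over all genes of the table. A gene rose or fell where that adjusted p was under 0.05, and both scales pull weak genes towards a common value. Tables were normalized separately, so levels are compared only within a table.

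More of these carriers lay above the median of the varying genes of their table in colon organoids than in the cell lines. Per kilobase of transcript, Slc2a1 and Slc16a1 had the highest levels in each organoid line and each cell line, in an order that varied. In parental MR580C cells Slc2a1 (10.74) led Slc16a1 (10.63). In WT organoids with vehicle 16 of the 40 rows did so in every library, and 15 did in GRKO organoids, against 3 to 5 in the cell lines. Per kilobase of transcript, the highest mean log2 levels in WT organoids were those of Slc2a1 (GLUT1, the widespread basal glucose carrier) at 11.51 and Slc16a1 (MCT1, the main carrier of lactate and short-chain fatty acids) at 10.66. Slc5a1 (SGLT1, the sodium-glucose cotransporter of gut epithelium) followed at 9.77, Slc16a3 (MCT4, a lactate exporter of glycolytic cells) at 9.29, Slc5a8 (SMCT1, which takes up short-chain fatty acids with sodium) at 8.46 and Slc16a5 (MCT6, a family member whose natural substrates are poorly known) at 8.39. The SD over libraries was 0.465 for Slc16a3 and 0.0793 to 0.226 for the other 5, so Slc5a8 and Slc16a5 lie within each other's spread. In parental MR cells Slc16a1 led at 10.89, then Slc2a1 at 9.79 and Slc5a3 (SMIT1, the sodium-myo-inositol cotransporter, which cells raise under hypertonic stress) at 8.69. Slc16a1, Slc2a1 and Slc5a3 lay above the table's median in each of the 5 cell lines, the remaining lines adding Slc2a6, Slc5a6, Slc2a8, Slc5a2 or the pseudogene row.

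**Figure D1:**
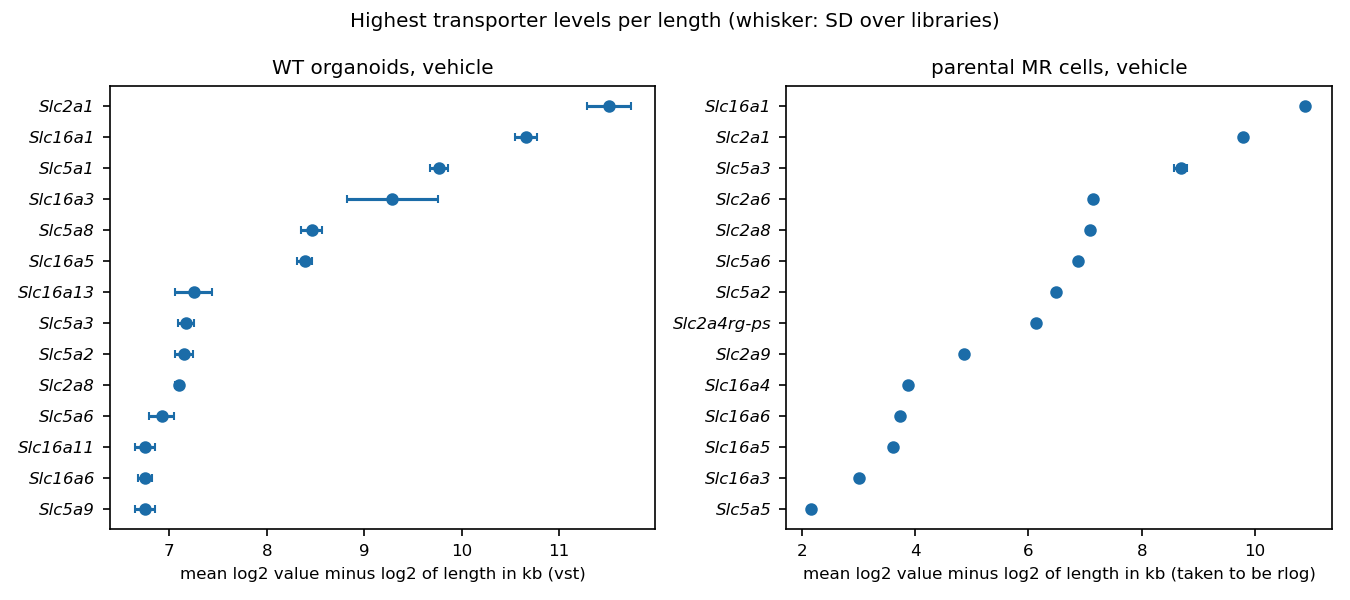
Mean log2 value minus log2 of the transcript length in kilobases for the highest transporters in vehicle-treated WT organoids (vst) and parental MR cells (taken to be rlog); whiskers are the SD over 6 and 3 libraries. Slc2a1 at 11.51 leads in organoids and Slc16a1 at 10.89 in the cells, and the panels are on different scales.

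Aldosterone raised the intestinal glucose carrier Slc5a1 and the MCT member Slc16a5 in both organoid lines, and the response of the inositol carrier Slc5a3 differed between WT and GRKO organoids. In WT organoids 2 of 39 transporters rose and 1 fell (7.69%), beside 6.59% of all genes tested. The median difference was -0.0239 for the transporters and -0.00469 for all genes. In GRKO organoids 3 of 40 rose and none fell (7.5%), beside 1.31% of all genes, with medians of 0.00372 and -0.00588. Differences in WT organoids ran from -0.19 to 0.19 in the Slc2a family (13 rows), from -0.25 to 0.68 in Slc5a (12) and from -0.20 to 0.49 in Slc16a (14). In GRKO organoids they ran from -0.20 to 0.17, from -0.14 to 0.37 and from -0.10 to 0.50.

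**Figure D2:**
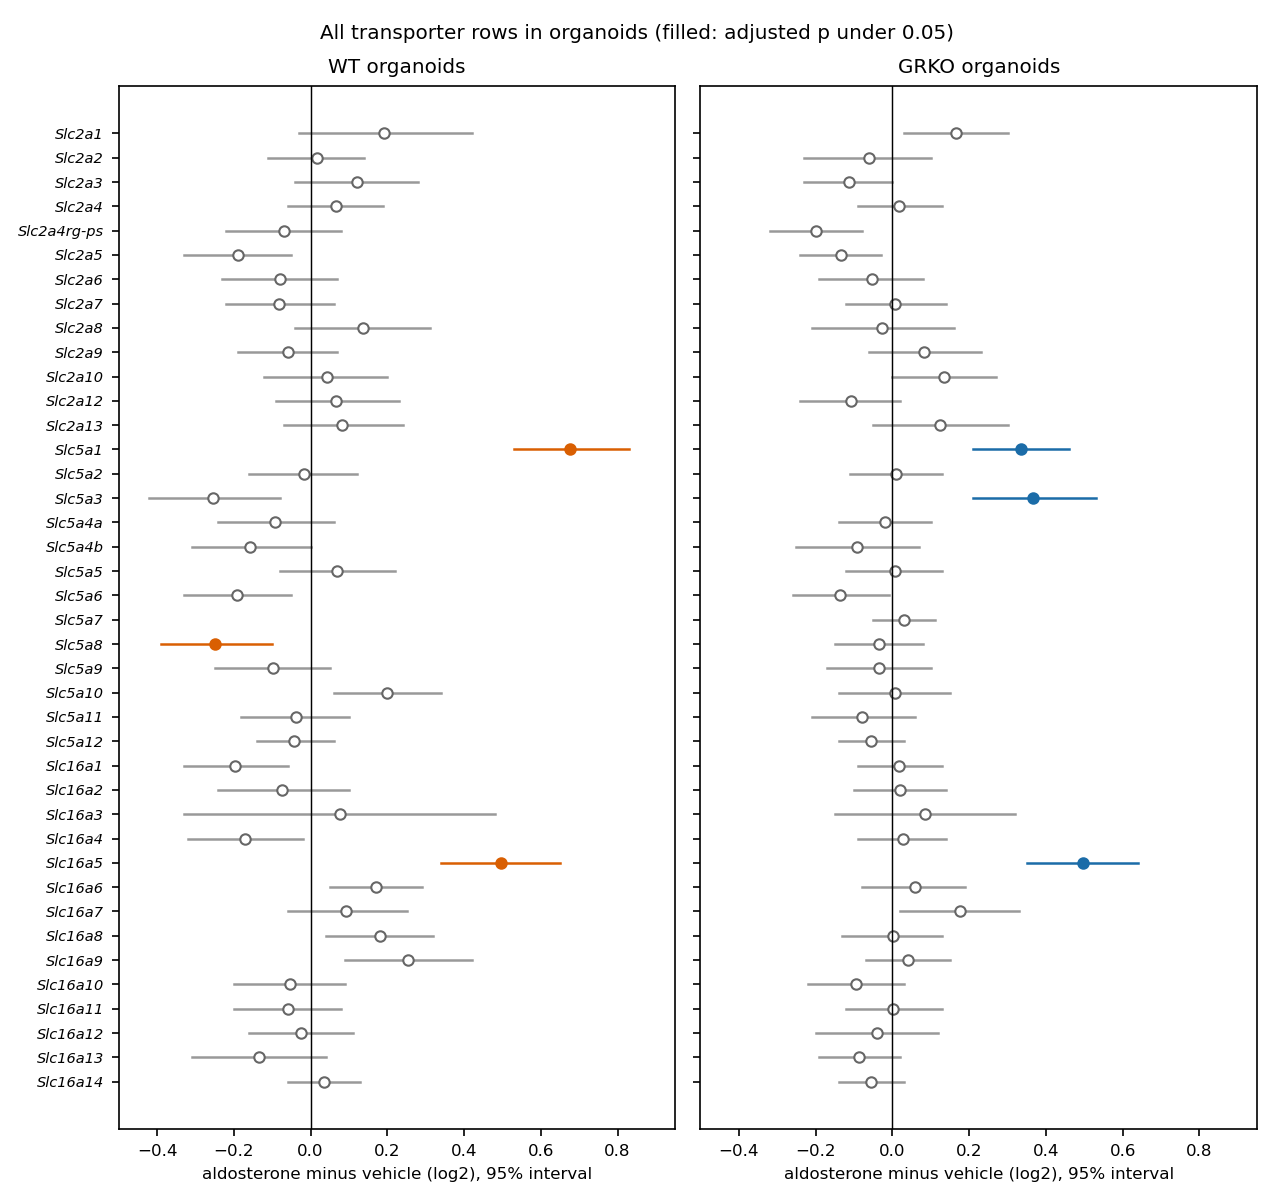
Aldosterone minus vehicle (log2) with 95% intervals for each transporter row in WT and GRKO organoids, filled points marking an adjusted p under 0.05. Slc5a1 and Slc16a5 lie right of 0 in both panels, and Slc5a3 lies left of 0 in WT (-0.25) and right of it in GRKO (0.37).

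Slc5a1 (NM_019810, chr5:33104219-33162699, plus strand, mm10) rose in both organoid lines. Its log2 value in WT vehicle libraries had a lowest, median and highest of 11.62, 11.76 and 11.87, against 12.18, 12.41 and 12.67 with aldosterone. All 6 aldosterone libraries lay above all 6 vehicle libraries. The difference was 0.68 ± 0.0707 (SE; 95% interval 0.53 to 0.83; 1.60-fold), with an adjusted p of 2.2e-06 by limma. In GRKO organoids the vehicle libraries read 11.78, 11.88, 11.65, 11.76 and 11.70 and the aldosterone libraries 12.14, 12.23, 12.05, 11.93 and 12.11. Here too every aldosterone library lay above every vehicle library. The difference was 0.34 ± 0.0587 (SE; 95% interval 0.21 to 0.46; 1.26-fold), with an adjusted p of 0.006 by limma. The response in WT exceeded that in GRKO by 0.34 ± 0.097 (SE; 95% interval 0.14 to 0.54), which did not pass the threshold (limma, adjusted p = 0.06). Without single libraries it passed in 4 of 22 fits: without WT aldosterone 1 (difference 0.39, adjusted p = 0.015) or 3 (0.35, adjusted p = 0.05 as rounded, below the threshold), WT vehicle 4 (0.37, adjusted p = 0.044) or GRKO aldosterone 2 (0.38, adjusted p = 0.038).

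Slc16a5 (NM_001359606, chr11:115462474-115474357, plus strand, mm10) rose by nearly equal amounts in both lines. In WT organoids its lowest, median and highest values were 9.90, 10.03 and 10.09 with vehicle and 10.28, 10.53 and 10.71 with aldosterone, and the groups did not overlap. The difference was 0.49 ± 0.0727 (SE; 95% interval 0.34 to 0.65; 1.41-fold; limma, adjusted p = 0.00013). In GRKO organoids the vehicle libraries read 10.10, 10.21, 10.36, 10.42 and 10.29 and the aldosterone libraries 10.98, 10.75, 10.71, 10.66 and 10.76, again with no overlap. The difference was 0.50 ± 0.0684 (SE; 95% interval 0.35 to 0.64; 1.41-fold; limma, adjusted p = 0.00067). The responses differed by -0.00 ± 0.105 (SE), with an interval of -0.22 to 0.22 and an adjusted p of 1 by limma. Gaps of up to 0.22 in either direction lie inside that interval, and a larger gap could also fail the adjusted threshold. Groups that did not overlap were 4 of 39 transporters in WT (Slc16a5, Slc16a9, Slc5a1 and Slc5a10), beside 4.8% of all genes, and 4 of 40 in GRKO (Slc16a5, Slc2a5, Slc5a1 and Slc5a3), beside 3.04%.

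Slc5a3 (NM_017391, chr16:92058322-92087473, plus strand, mm10) was the only transporter of 39 whose response differed between the lines past the threshold, beside 2.59% of all genes. In WT organoids its lowest, median and highest values were 10.55, 10.61 and 10.74 with vehicle and 10.24, 10.30 and 10.78 with aldosterone. Of the 6 aldosterone libraries, 5 lay at 10.24 to 10.34, below every vehicle library, and aldosterone 4, at 10.78, lay above them all. The difference of -0.25 ± 0.0799 (SE; 95% interval -0.42 to -0.08) did not pass (limma, adjusted p = 0.074). Without aldosterone 4, which stands apart and is high in mesenchyme markers, it was -0.33 ± 0.0527 (SE; limma, adjusted p = 0.0003). In GRKO organoids the vehicle libraries read 10.82, 10.65, 10.66, 10.93 and 10.63 and the aldosterone libraries 11.03, 11.35, 11.15, 10.93 and 11.07. The aldosterone libraries lay above the vehicle libraries, with the lowest of the former and the highest of the latter both at 10.93 after rounding. Slc5a3 rose there by 0.37 ± 0.0762 (SE; 95% interval 0.21 to 0.53; 1.29-fold; limma, adjusted p = 0.023). That call was lost without GRKO aldosterone 3 or 6 or vehicle 2, 3 or 5, where the difference was 0.34 to 0.38 with adjusted p from 0.053 to 0.079. The WT response minus the GRKO response was -0.62 ± 0.118 (SE; 95% interval -0.86 to -0.38), with an adjusted p of 0.0018 by limma. It was -0.70 to -0.56 when each of the 22 libraries was left out, and past the threshold each time. It was -0.73 (adjusted p = 1.8e-05) without the 5 libraries that stand apart and -0.69 (adjusted p = 5.1e-05) without both libraries high in mesenchyme markers.

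The span of Slc5a3 overlaps that of Mrps6, so reads of the pair may not be fully separable in these tables. Mrps6 differed by -0.03 ± 0.0688 in WT (SE; limma, adjusted p = 0.88) and rose by 0.26 ± 0.0533 in GRKO organoids (SE; limma, adjusted p = 0.022). Its difference between the lines was -0.29 ± 0.091 (SE; limma, adjusted p = 0.11), and its part in the values of Slc5a3 was not tested. Protein-coding genes also overlap Slc16a3 (Csnk1d), Slc16a4 (Rbm15), Slc16a6 (Arsg), Slc2a12 (Tbpl1), Slc5a2 (Rusf1), Slc5a6 (Atraid), Slc5a10 (Fam83g) and the pseudogene row (Zbtb46). The long noncoding gene Gm11695 overlaps Slc16a5. The related genes Slc5a4a and Slc5a4b may share some reads, which was not tested.

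Slc5a8 (NM_145423, chr10:88885992-88929515, plus strand, mm10) fell in WT organoids. Its lowest, median and highest values were 10.75, 10.85 and 11.02 with vehicle and 10.38, 10.64 and 10.75 with aldosterone, so that before rounding 5 of 6 aldosterone libraries lay below every vehicle library, while at these digits the highest 2 aldosterone libraries and the lowest vehicle library all read 10.75. The difference was -0.25 ± 0.0691 (SE; 95% interval -0.39 to -0.10; limma, adjusted p = 0.035). The call was lost in 6 of 12 fits without a single library, those leaving out vehicle 2, 3 or 4 or aldosterone 1, 2 or 6, with differences of -0.26 to -0.20 and adjusted p from 0.052 to 0.1. In GRKO organoids Slc5a8 read 10.96, 10.95, 11.03, 10.98 and 11.11 with vehicle and 11.06, 11.00, 11.02, 10.78 and 10.99 with aldosterone. The groups overlapped and differed by -0.03 ± 0.0553 (SE; 95% interval -0.15 to 0.08; limma, adjusted p = 0.86). The responses of both lines differed by -0.22 ± 0.093 (SE; 95% interval -0.41 to -0.02), which did not pass (limma, adjusted p = 0.33).

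**Figure D3:**
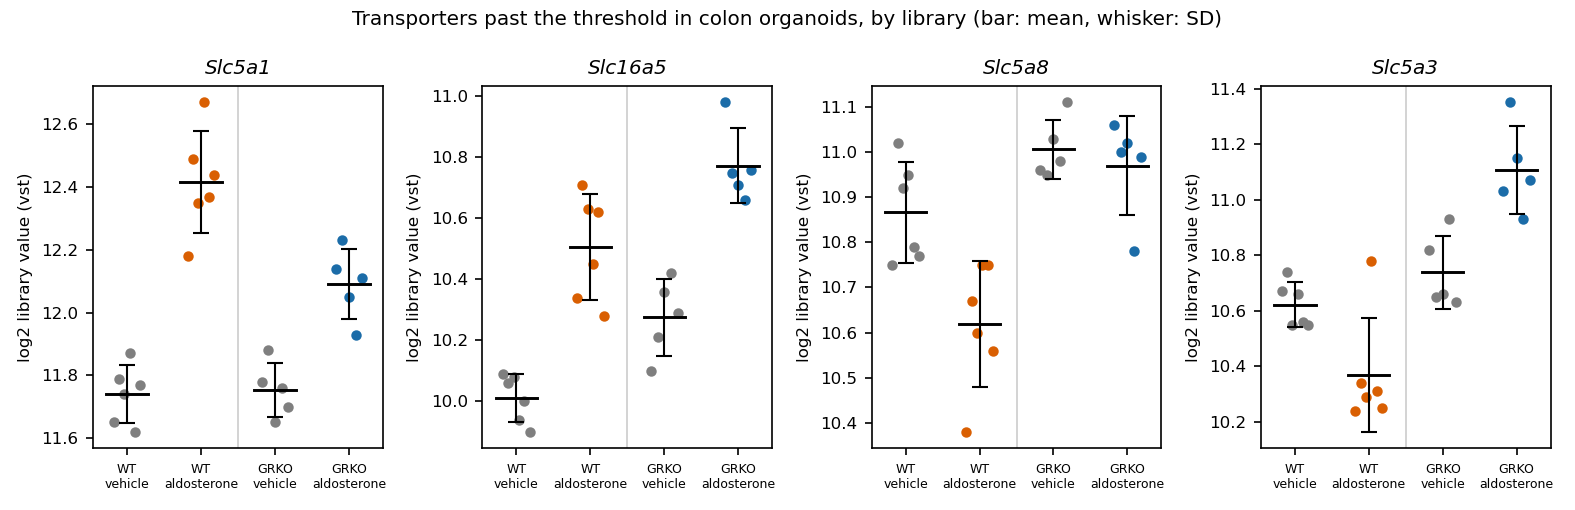
Log2 library values (vst) of the transporters past the threshold in organoids, 1 point per library, with bars for the mean and whiskers for the SD of 6 WT or 5 GRKO libraries; WT and GRKO were normalized separately. For Slc5a3, WT aldosterone 4 at 10.78 stands above the other 5, which lie between 10.24 and 10.34.

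The main lactate and glucose carriers did not pass in either organoid line. Slc16a1 (NM_009196, chr3:104638664-104658462, plus strand, mm10) had a lowest, median and highest value of 12.67, 12.80 and 12.93 in WT vehicle and 12.49, 12.58 and 12.80 in WT aldosterone libraries. The groups overlapped, and the difference was -0.20 ± 0.065 (SE; limma, adjusted p = 0.091). It passed without aldosterone 4 (-0.24, limma, adjusted p = 0.02). In GRKO organoids Slc16a1 read 12.77, 12.69, 12.69, 12.89 and 12.74 with vehicle and 12.84, 12.81, 12.76, 12.66 and 12.79 with aldosterone. That difference was 0.02 ± 0.0516 (SE; limma, adjusted p = 0.94). Slc2a1 (NM_011400, chr4:119108745-119137329, plus strand, mm10) had 12.55, 12.89 and 13.14 in WT vehicle and 12.83, 13.01 and 13.37 in WT aldosterone libraries as lowest, median and highest. It read 12.86, 12.97, 12.97, 13.01 and 12.97 in GRKO vehicle and 13.25, 12.94, 13.19, 13.00 and 13.24 in GRKO aldosterone libraries. The groups of Slc2a1 overlapped in both lines, with differences of 0.19 ± 0.107 in WT (SE; 95% interval -0.03 to 0.42; limma, adjusted p = 0.42) and 0.17 ± 0.0636 in GRKO (SE; limma, adjusted p = 0.36).

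Slc16a3 (plus strand, mm10; NM_030696, chr11:120948484-120959000, in the WT table and NM_001038653, chr11:120949067-120959000, in the GRKO table) spread widely within the WT groups. In WT vehicle libraries 1 to 6 it read 11.02, 10.42, 10.99, 10.04, 11.03 and 10.13, and in WT aldosterone libraries 1 to 6 it read 10.62, 10.60, 11.10, 10.33, 11.21 and 10.23. In GRKO organoids it read 10.66, 10.98, 10.90, 10.90 and 11.04 with vehicle and, in aldosterone libraries 1, 2, 3, 4 and 6, 11.22, 10.63, 11.22, 10.73 and 11.11. The difference was 0.08 ± 0.194 in WT (SE; 95% interval -0.33 to 0.48; limma, adjusted p = 0.89) and 0.09 ± 0.109 in GRKO (SE; limma, adjusted p = 0.84). The mean log2 value of 22 glycolysis genes above the median of all genes ran alongside: 12.41, 12.30, 12.43, 12.27, 12.43 and 12.17 in WT vehicle libraries 1 to 6, and 12.32, 12.41, 12.53, 12.35, 12.52 and 12.25 in WT aldosterone libraries 1 to 6. In GRKO organoids it was 12.41, 12.44, 12.45, 12.50 and 12.53 in vehicle libraries and 12.59, 12.41, 12.54, 12.40 and 12.57 in aldosterone libraries 1, 2, 3, 4 and 6. The 5 WT libraries highest in Slc16a3, vehicle 1, 3 and 5 and aldosterone 3 and 5, had a glycolysis mean of 12.41 to 12.53 and Slc2a1 at 12.98 to 13.37. The other 7 had 12.17 to 12.41 and 12.55 to 13.06, with aldosterone 2 (12.41 and 13.06) inside the former range. GRKO aldosterone 1, 3 and 6, the highest of that line in Slc16a3, had 12.54 to 12.59 and 13.19 to 13.25, above the other 7 GRKO libraries at 12.40 to 12.53 and 12.86 to 13.01. This describes the libraries and was not tested.

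**Figure D4:**
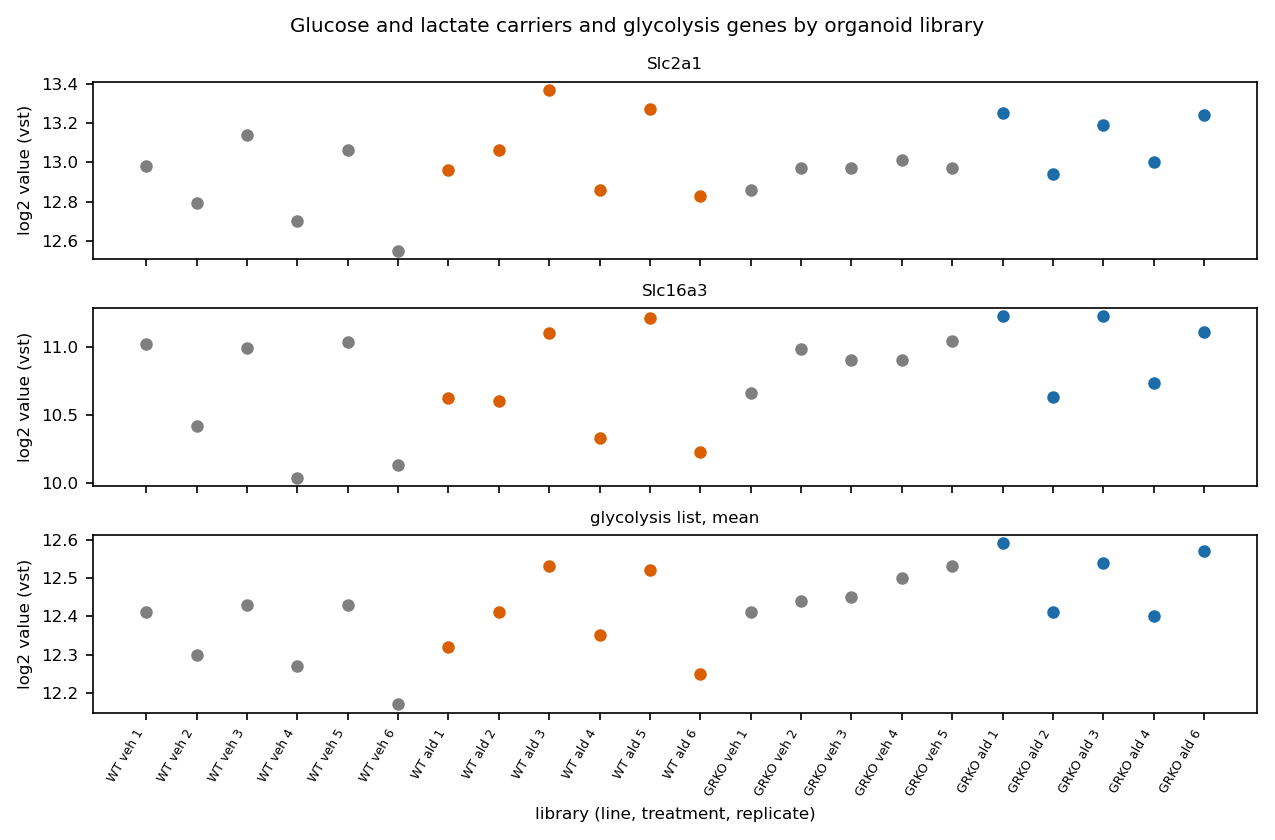
Log2 values (vst) of Slc2a1 and Slc16a3 and the mean of 22 glycolysis genes in each organoid library. Slc16a3 is at 10.99 to 11.21 in WT vehicle 1, 3 and 5 and WT aldosterone 3 and 5 and at 10.04 to 10.62 in the remaining WT libraries, while in the other panels WT aldosterone 2 reaches into the range of those 5.

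Further transporters of WT organoids passed only by the authors' deposited adjusted p. The authors' deposited table calls 8 of 39 transporters in WT organoids (8.15% of all genes), namely Slc16a1, Slc16a5, Slc16a6, Slc16a9, Slc5a1, Slc5a10, Slc5a6 and Slc5a8. It calls 4 of 40 in GRKO organoids (2.33% of all genes), namely Slc16a5, Slc5a1, Slc5a3 and Slc2a4rg-ps. By limma, Slc16a9 (difference 0.25, adjusted p = 0.067) and Slc5a10 (0.20, adjusted p = 0.098), which carries mannose and fructose in the kidney, had WT groups that did not overlap but did not pass. Slc16a6 (0.17), the fructose carrier Slc2a5 (-0.19) and the vitamin carrier Slc5a6 (-0.19) each had an adjusted p of 0.11 in WT by limma. At an unadjusted p under 0.05, limma counted 13 of 39 transporters in WT (16.4% of all genes), 9 of 40 in GRKO (10.3%) and 7 of 39 for the difference between the lines (12.1%). Leaving out the 5 libraries that stand apart brought the WT count to 8, with Slc16a1, Slc16a6, Slc16a8, Slc2a5 and Slc5a3 added to the 3 above.

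In the cell lines few transporters passed the test, and the inositol carrier Slc5a3 fell with corticosterone in parental MR580C cells. Its vehicle libraries read 12.67, 12.70 and 12.70, its aldosterone libraries 12.64, 12.75 and 12.57 and its corticosterone libraries 12.50, 12.49 and 12.41. The corticosterone libraries lay below both other groups, while vehicle and aldosterone overlapped. Against vehicle, Slc5a3 fell with corticosterone, by -0.22 ± 0.0397 (SE; 95% interval -0.30 to -0.14; limma, adjusted p = 0.00077). Against aldosterone the difference was -0.18 ± 0.0397 (SE; 95% interval -0.27 to -0.10; limma, adjusted p = 0.0089). Both comparisons share the corticosterone libraries. The former call held without each library in turn, with -0.24 to -0.19. The latter was lost without aldosterone 2 (-0.13, adjusted p = 0.064), corticosterone 2 (-0.19, adjusted p = 0.054) or corticosterone 3 (-0.15, adjusted p = 0.11). Aldosterone against vehicle gave -0.04 (limma, adjusted p = 0.82), and Mrps6 gave -0.12 ± 0.0368 with corticosterone (SE; limma, adjusted p = 0.062). In all, 3 of 33 transporters passed with corticosterone (9.09%), beside 6.92% of all genes, and 6 of 33 at an unadjusted p under 0.05, beside 18.9%. The groups of 9 did not overlap, beside 22.2% of all genes. The authors' deposited table calls 1 of the 33, Slc5a3 (8.58% of all genes).

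Slc16a13, an MCT family member, and Slc2a4 (GLUT4, the insulin-responsive glucose carrier of muscle and fat) were the other 2, both at the floor of the table. Slc16a13 (NM_172371, chr11:70216792-70220994, minus strand, mm10) read 9.16 in all 3 vehicle libraries, the lowest value in the table, 9.26, 9.22 and 9.22 with aldosterone and 9.21, 9.33 and 9.27 with corticosterone. Slc2a4 (NM_001359114 in this table, chr11:69942286-69948197, minus strand, mm10) read 9.16 in all vehicle libraries, 9.16, 9.16 and 9.25 with aldosterone and 9.24, 9.24 and 9.29 with corticosterone. The corticosterone libraries lay above vehicle by 0.12 (Slc16a13; limma, adjusted p = 0.014) and 0.10 (Slc2a4; limma, adjusted p = 0.034). Both have an adjusted p of 1 in the authors' deposited table. The call of Slc2a4 was lost without any single library, and that of Slc16a13 without vehicle 1 or 3 or corticosterone 2 or 3. Between the hormones, 1 of 33 transporters differed (Slc5a3), beside 3.35% of all genes, and 2 of 33 did at an unadjusted p under 0.05, beside 13.9%.

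The values of Slc5a3 in the remaining cell lines did not pass. With aldosterone they read 12.63, 12.67 and 12.88 against 12.74, 12.67 and 12.67 with vehicle in cells without MR, and 12.01 and 12.09 against 12.08, 12.06 and 12.26 in parental MR cells. Both pairs of groups overlapped, with differences of 0.04 ± 0.0601 (SE; limma, adjusted p = 0.92) and -0.08 ± 0.0581 (SE; limma, adjusted p = 0.98). With corticosterone, parental MR cells read 11.89 and 11.90 against 12, 11.97 and 12.21 with vehicle. These groups did not overlap, as in 4 of 14 transporters and 3222 of 12457 genes of that comparison. The difference of -0.17 ± 0.0634 (SE; 95% interval -0.31 to -0.02) did not pass (limma, adjusted p = 0.35). In MR cells labelled GRKO, aldosterone gave 11.70, 11.81 and 11.75 against 11.69, 11.70 and 11.68 (difference 0.06 ± 0.0257, SE; limma, adjusted p = 0.35). Corticosterone gave 11.74, 11.85 and 11.71 against 11.75, 11.75 and 11.74 there (difference 0.02 ± 0.0311, SE; limma, adjusted p = 0.87), and both pairs overlapped. In MR580C cells labelled GRKO the averaged aldosterone libraries read 11.47 and 11.42, below vehicle at 11.61, 11.55 and 11.49. Groups without overlap were common there, in 5 of 16 transporters and 4246 of 12418 genes. The difference of Slc5a3 was -0.10 ± 0.0398 (SE; limma, adjusted p = 0.25). Without aldosterone 1, which leaves 1 aldosterone sample, it was -0.13. The aldosterone and corticosterone comparisons of a line share their vehicle samples. The response of parental minus GRKO-labelled MR cells was -0.15 for aldosterone (limma, adjusted p = 0.56) and -0.19 for corticosterone (limma, adjusted p = 0.35).

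**Figure D5:**
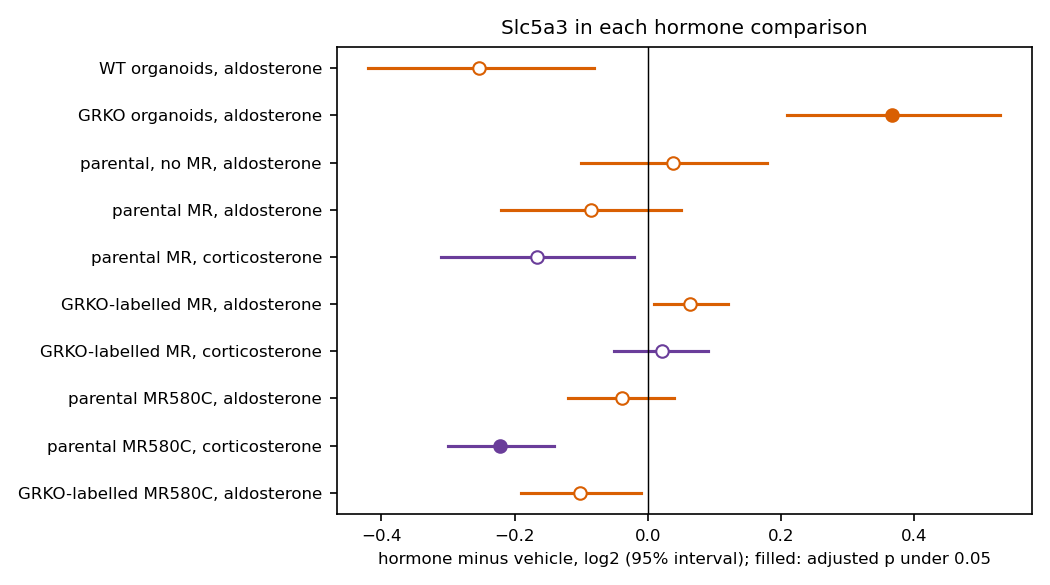
Difference of Slc5a3 from vehicle (log2, with 95% intervals) in each hormone comparison, on scales that differ between tables. Corticosterone in parental MR580C cells (-0.22) and aldosterone in GRKO organoids (0.37) passed the threshold.

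Slc16a1 and Slc2a1 stayed within a narrow range in the cell lines, and Slc16a3, which was weak there, did not pass. Slc16a1 read 13.17, 13.22 and 13.19 with vehicle and 13.24, 13.22 and 13.15 with aldosterone in cells without MR. It read 13.07, 13.04 and 13.01 against 13.06 and 13.03 in parental MR cells, and 13.18, 13.22 and 13.18 against 13.23, 13.22 and 13.18 in those labelled GRKO. In parental MR580C cells it read 12.79, 12.78 and 12.76 with vehicle, 12.82, 12.73 and 12.77 with aldosterone and 12.80, 12.77 and 12.80 with corticosterone. These groups overlapped throughout. In MR580C cells labelled GRKO it read 11.85, 11.85 and 11.90 against 11.89 and 11.90 with aldosterone. For corticosterone it read 13.01, 12.97 and 12.94 against 12.99 and 12.97 in parental MR cells, and 13.25, 13.29 and 13.25 against 13.23, 13.31 and 13.34 in those labelled GRKO. Over these 8 comparisons its difference lay between -0.00 and 0.03, with adjusted p of 0.72 or more by limma.

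Slc2a1 read 11.53, 11.50 and 11.52 with vehicle and 11.51, 11.47 and 11.51 with aldosterone in cells without MR. It read 11.18, 11.14 and 11.10 against 11.16 and 11.19 in parental MR cells, and 10.97, 10.94 and 11.04 against 10.99, 10.95 and 11.04 in those labelled GRKO. In parental MR580C cells it read 12.13, 12.02 and 12.14 with vehicle, 12.08, 12.09 and 12.17 with aldosterone and 12.09, 12.04 and 11.99 with corticosterone. The groups overlapped in each line. In MR580C cells labelled GRKO it read 10.83, 10.82 and 10.86 with vehicle and 10.84 in both aldosterone samples. For corticosterone it read 11.10, 11.05 and 11.00 against 10.97 and 11.01 in parental MR cells, and 11.06, 11.02 and 11.13 against 11.11, 11.06 and 11.11 in those labelled GRKO. Its difference lay between -0.06 and 0.03, with adjusted p of 0.5 or more by limma.

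Slc16a3 lay above the median of its table in vehicle-treated organoids but not in the cells. It read 5.18, 5.16 and 5.16 with vehicle and 5.17, 5.15 and 5.19 with aldosterone in cells without MR. It read 4.32, 4.33 and 4.33 against 4.33 and 4.32 in parental MR cells, and 4.82, 4.81 and 4.82 against 4.83, 4.82 and 4.83 in those labelled GRKO. In parental MR580C cells, on the vst scale, it read 9.79, 9.64 and 9.69 with vehicle, 9.61, 9.67 and 9.63 with aldosterone and 9.61, 9.59 and 9.61 with corticosterone. Only the corticosterone group of that line lay clear of vehicle, by -0.10 ± 0.0357 (SE; limma, adjusted p = 0.12). In MR580C cells labelled GRKO it read 4.92, 4.92 and 4.91 with vehicle and 4.90 and 4.89 with aldosterone (difference -0.02, limma, adjusted p = 0.33). These groups also did not overlap, beside 4246 of 12418 genes in that comparison. For corticosterone it read 4.19, 4.20 and 4.20 against 4.20 and 4.19 in parental MR cells, and 4.79, 4.79 and 4.80 against 4.81, 4.80 and 4.80 in those labelled GRKO. Both log scales pull such weak genes together, so these narrow spreads do not show that Slc16a3 was stable. The authors' deposited log2 fold changes ran from -0.58 (corticosterone, parental MR580C cells, deposited adjusted p = 0.12) to 0.6 (aldosterone, GRKO-labelled MR cells, deposited adjusted p = 0.71).

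No transporter passed by limma in the 7 remaining hormone comparisons of cell lines. With aldosterone the counts were 0 of 16 in cells without MR (0.00767% of all genes) and 1 at an unadjusted p under 0.05 (4.58% of all genes). They were 0 of 14 in parental MR cells (0.697%) and 0 unadjusted (5.32%), and 0 of 14 in MR cells labelled GRKO (0.993%) and 2 unadjusted (11.4%). With corticosterone they were 0 of 14 in parental MR cells (3.11%) and 1 unadjusted (10.9%), and 0 of 14 in MR cells labelled GRKO (0.248%) and 0 unadjusted (9.17%). With aldosterone they were 0 of 33 in parental MR580C cells (1.15%) and 3 unadjusted (10.9%), and 0 of 16 in MR580C cells labelled GRKO (0.298%) and 2 unadjusted (16.4%). The authors' deposited tables call none in the former 6 (in this order 0.0986%, 0.7%, 0.785%, 2.56%, 0.432% and 1.18% of all genes) and, in the last, Slc16a4 (1 of 29, beside 3.14% of all genes). Slc16a4 (NM_146136 in this table, chr3:107291230-107312115, plus strand, mm10), named for that call after its values were seen, read 5.97, 5.94 and 5.92 with vehicle and 5.85 and 5.87 with aldosterone. The groups did not overlap, beside 5 of 16 transporters and 4246 of 12418 genes in that comparison. The difference was -0.08 ± 0.0188 (SE; limma, adjusted p = 0.11), against -0.84 (adjusted p = 0.026) in the authors' deposited table. The deposited aldosterone columns include the identical libraries 2 and 3, so the deposited p-values of this comparison may count 1 library more than once. The difference on the library values was -0.07 without aldosterone 1 and -0.09 without the averaged sample, each of which leaves 1 aldosterone sample. The 404 genes in the table of GRKO-labelled MR580C cells with corticosterone include none of the transporters.

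The differences between cell lines held no call either. They were 0 of 14 for aldosterone (0.259% of all genes) with 1 unadjusted (8.84%), and 0 of 14 for corticosterone (2.81%) with 1 unadjusted (11.8%), between parental and GRKO-labelled MR cells. They were 0 of 16 between parental MR cells and cells without MR (0.532%) with 0 unadjusted (6.13%). Between both MR580C lines, by a z test on the deposited fold changes, they were 0 of 28 (0.745%) with 1 unadjusted (9.84%). That z test uses the deposited p-values of the GRKO-labelled line, which may count its identical aldosterone libraries separately. In each comparison of the MR lines the transporter with an unadjusted p under 0.05 was Slc5a3, and between both MR580C lines it was Slc16a4.

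Several genes that work beside these carriers changed in the organoids. The hormone marker Sgk1, an aldosterone-induced kinase, rose by 5.68 ± 0.0764 in WT and 4.05 ± 0.07 in GRKO organoids (SE; limma, adjusted p = 5.8e-19 and 5.2e-15). Of 27 glycolysis and lactate enzymes (calls over all genes were 6.59% in WT and 1.31% in GRKO organoids) only the hexokinase gene Hk2 rose, by 0.51 ± 0.128 in WT (SE; limma, adjusted p = 0.02) and 0.35 ± 0.0695 in GRKO organoids (SE; limma, adjusted p = 0.015), and none fell. The median difference of that list was 0.0189 in WT and 0.0251 in GRKO organoids. Of 18 genes of pyruvate entry and gluconeogenesis, 5 rose and 1 fell in WT organoids, beside the 6.59% called of all genes. Pdk4, a kinase that inhibits the pyruvate dehydrogenase of mitochondria, rose by 0.65 ± 0.0789 (SE; limma, adjusted p = 1.5e-05) and Pck1, a gluconeogenic enzyme, by 0.61 ± 0.0746 (SE; limma, adjusted p = 1.5e-05). Slc37a4, the glucose-6-phosphate carrier of the endoplasmic reticulum, rose by 0.45 ± 0.0719 (SE; limma, adjusted p = 0.00036), and Pdp1, which reverses the action of the Pdk kinases, fell by 0.27 (limma, adjusted p = 0.015). In GRKO organoids, beside 1.31% of all genes, 1 of the 18 rose (Pck1, 0.46 ± 0.0797, SE; limma, adjusted p = 0.0056). Pdk4 and Slc37a4 responded more in WT than in GRKO organoids, by 0.53 (limma, adjusted p = 0.0019) and 0.40 (limma, adjusted p = 0.0089).

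Of 13 partners and regulators of the transporters, 3 rose and 1 fell in WT organoids, and 1 rose and 1 fell in GRKO organoids, beside the same 6.59% and 1.31% of all genes. Txnip, an arrestin-like protein known to remove GLUT1 from the cell surface, rose by 1.01 ± 0.0701 in WT (SE; limma, adjusted p = 9.9e-09), while it differed by 0.17 ± 0.0573 in GRKO (SE; limma, adjusted p = 0.24). The responses of Txnip differed by 0.83 ± 0.0912 (SE; limma, adjusted p = 6.7e-07). Its relative Arrdc4 fell by 0.46 in WT (limma, adjusted p = 0.00039) and fell by 0.21 in GRKO (limma, adjusted p = 0.034). Mlxip, a glucose-sensing transcription factor, rose by 0.44 in WT (limma, adjusted p = 6.6e-06), and the coactivator Ppargc1a rose by 0.86 in WT (limma, adjusted p = 5.0e-08) and 0.71 in GRKO (limma, adjusted p = 3.1e-06). Bsg, the chaperone that brings MCT1 and MCT4 to the membrane and is named here after its values were seen, differed by 0.01 ± 0.0901 in WT and -0.01 ± 0.0629 in GRKO (SE; limma, adjusted p = 0.98 and 0.96). In parental MR580C cells corticosterone raised Pdk4 by 0.47 (limma, adjusted p = 1.9e-08), Pdp1 by 0.31 (limma, adjusted p = 2.1e-06) and the glycolytic regulator Pfkfb3 by 0.15 (limma, adjusted p = 0.01), and of the partners it raised Txnip (0.20) and Hif1a (0.21) and lowered Ppargc1a (-0.24). Aldosterone raised Txnip there by 0.29 (limma, adjusted p = 0.0087). Corticosterone called 1 of 26 glycolysis, 2 of 14 pyruvate and 3 of 11 partner genes there, beside 6.92% of all genes. In parental MR cells it called 2 of 23, 2 of 14 and 1 of 10, beside 3.11%. Pdk4 (0.34), Pdp1 (0.18), Pfkfb3 (0.16) and Pfkfb4 (0.19) rose with corticosterone in parental MR cells and Ppargc1a (-0.17) fell. Txnip differed by -0.04 in that comparison (limma, adjusted p = 0.86). Of 9 genes of fructose, polyol and inositol handling none passed by limma in any comparison. At an unadjusted p under 0.05 the most were 3 of 8 tested, for the difference between the organoid lines, beside 12.1% of all genes. Markers of the intestine moved beside these results: in WT organoids Cdx2 (-0.37) and Aqp8 (-0.44) fell and Rbp2 (0.81) rose, and in GRKO organoids Slc26a3 (0.61) rose, while the summed colon markers were 19.03 to 19.10 with vehicle and 19.04 to 19.12 with aldosterone in WT organoids. In GRKO organoids they were 18.96 to 19.16 with vehicle and 19.12 to 19.28 with aldosterone, with a median difference of 0.108 over the 16 markers, beside -0.00588 over all genes, and 5 of 16 at an unadjusted p under 0.05 (10.3% of all genes). In parental MR580C cells corticosterone lowered the markers Pdgfrb (-0.23) and Gata3 (-0.15) and raised Alpi (0.09), and in parental MR cells it lowered Pdgfrb (-0.18). Aldosterone lowered the marker Krt14 (-0.26) in parental MR580C cells. Their part in the transporter results was not tested.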

How the data were processed

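The deposited tables give 1 line per gene and 1 column per library. Per the file headers, the authors counted exon reads with HOMER on mm10 and compared groups with its getDiffExpression.pl, and per the submitters' processing notes HOMER was version 4.10.4 and STAR, among the listed tools, 2.7.0f. The deposited library columns hold log2 values, named vst in the headers of 3 tables and taken to be rlog, from the values, in the other 7. Each table also holds the authors' deposited log2 fold change and p-value, raw and adjusted. Such log values do not give back whole reads, so counting intervals were not computed and precision rests on the replicates. Per the labels' protocols the libraries are stranded total RNA, and the sources used here do not give the strand setting of the counting. Columns of the GRKO organoids carry the name GRKD, while GEO's labels, which were followed, say GRKO.

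Genes that vary by more than 1e-06 among the libraries of a fit and reach a linear value of 10 (log2 3.32) in as many libraries as the smaller group were tested by limma (version 3.58.1, R 4.3.3) with its trend option and a mean for each group, 2-sided, adjusted by Benjamini-Hochberg over all genes tested, threshold 0.05. The filter removes nothing from the vst tables. Differences between lines were differences of differences over both tables. Between both MR580C lines, which are on different scales, a z test on the deposited fold changes and p-values was used. The fits were tested on simulated data. Tables were prepared with Python 3.11.15 and pandas 2.3.3, and plotted with matplotlib 3.10.9. Promoter windows come from RefSeq.

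The members and the gene lists (glycolysis, pyruvate entry and gluconeogenesis, partners and regulators, fructose, polyol and inositol handling, and cell type markers) were chosen with earlier results of these data known. Values in every library were given for members past the threshold, up to 12, and for Slc2a1, Slc16a1 and Slc16a3 (in organoids also Slc5a1 and Slc5a8) in any case. At most 4 called genes of a gene list were named in a comparison. Alternatives were no filter and a stricter one, no trend, median-centred libraries, the replicate number as a block, the authors' adjusted p-values, each library left out in turn and, chosen after seeing the data, the libraries that stand apart or are high in mesenchyme markers left out.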

Additional observations from a re-analysis of the deposited data

Results flagged for a closer look

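In 32 sets of values, each a transporter in 1 of the 4 organoid groups, 3 held a value far from the others of its set, where chance gives about 1 in 20. Slc5a3 in WT aldosterone replicate 4 stood at 10.78, above the other 5 libraries of its group at 10.24 to 10.34. Slc5a8 in GRKO aldosterone replicate 4 stood at 10.78, below the other 4 at 10.99 to 11.06. Slc2a1 in GRKO vehicle replicate 1 stood at 12.86, below the other 4 at 12.97 to 13.01. The response of Slc5a3 to aldosterone differed between WT and GRKO organoids by -0.62 (limma, test of the difference, adjusted p = 0.0018), with a lower value after hormone in 5 of 6 WT libraries and higher values in 5 of 5 GRKO libraries.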

How the results depend on the processing

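Counts of transporters past the threshold moved as follows. With the replicate number as a block the count was 1 instead of 0 (Slc5a3) in parental MR cells for either hormone and for both differences from GRKO-labelled MR cells, 7 instead of 3 in WT organoids, 0 instead of 3 in GRKO organoids and 2 instead of 1 (Slc5a1 added) for the difference between the organoid lines. Same-numbered samples deviated together beyond a correlation of 0.1 in every pair in parental MR cells alone (0.675 to 0.75, 2 pairs). That is too few to take numbers as pairing. In WT organoids 3 of 6 pairs did so, with correlations from -0.175 to 0.509 over the 6, and all 4 pairs of GRKO organoids were negative (-0.164 to -0.0826). The main fits do not use the replicate numbers, and whether these mark pairs in WT organoids was not tested. By the authors' adjusted p the count was 8 in WT organoids, 1 for corticosterone in parental MR580C cells instead of 3, and 1 for aldosterone in MR580C cells labelled GRKO instead of 0, as also with the identical libraries kept separate. A stricter filter gave 1 for corticosterone in parental MR580C cells and 2 for the difference between organoid lines, where a z test on deposited fold changes also gave 2. Without the libraries that stand apart the counts were 8 in WT organoids and 3 for the difference between the lines (Slc16a1, Slc16a8 and Slc5a3), and the small difference of Slc16a5 between the lines turned from -0.00 to 0.06, or to 0.07 without the libraries high in mesenchyme markers. The causes were not tested.

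Without single libraries the count was 2 to 6 in WT and 2 to 4 in GRKO organoids, 1 to 2 for their difference, and 1 to 3 for corticosterone and 0 to 1 for corticosterone against aldosterone in parental MR580C cells. For aldosterone in MR580C cells labelled GRKO such counts are not given, since leaving out an aldosterone sample leaves 1. Values near 0 changed sign: in GRKO organoids Slc16a1 (-0.00 to 0.05) and Slc5a8 (-0.06 to 0.01), between the organoid lines Slc2a1 (-0.04 to 0.08) and Slc16a5 (-0.04 to 0.05), and Slc5a3 with aldosterone in cells without MR (-0.04 to 0.09) and parental MR580C cells (-0.09 to 0.00) and with corticosterone in MR cells labelled GRKO (-0.02 to 0.05). Slc5a1 and Slc16a5 in both organoid lines kept their direction and call in every setting but the block in GRKO organoids (Slc5a1 0.32, adjusted p = 0.36; Slc16a5 0.50, adjusted p = 0.56). Replicate spread, 2 or 3 samples a group in the cells and the pull of both log scales on weak genes limit what could be detected.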
